A study of Monodelphis domestica with 5 samples.

Results

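Of the 16592 H3K27me3 peaks deposited for fibroblasts of the gray short-tailed opossum, *Monodelphis domestica*, 2069 lay on chromosomes 1 to 8, had a MACS score of at least 50 and shared no base with any deposited peak of H3K4me3, H3K9Ac or H3K9me3. These peaks are called mark-free below, which says only that no other list held a peak at the same place. The score grows with the evidence for a peak over input chromatin (the log10 of its p-value multiplied by -10), so that 50 corresponds to a p of 1e-05. Mark-free peaks made up 46.1% (exact 95% binomial interval 44.7% to 47.6%) of the 4484 placed H3K27me3 peaks above this threshold. Of the others, 2177 shared a base with H3K9me3 and 383 with H3K4me3, including 147 that shared both, and 51 shared a base with H3K9Ac. The 4 lists together hold 308249 peaks.

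All libraries came from primary ear fibroblasts of 1 adult male, A0514, the F1 offspring of an LL1 mother crossed to an LL2 father, grown to passage 4 to 6 per the labels. The study's methods give a lower passage number. There was 1 native ChIP-seq library for each antibody and 1 of input chromatin, and no file of the input was used here. No value therefore has a replicate error and no test between marks was possible. Intervals cover counting error only and treat peaks as independent, although neighbouring peaks can belong to 1 enriched stretch. The fibroblast label was not checked against marker genes, because no MonDom5 gene annotation was used here. Both the threshold and the absence of other marks were read from these libraries, so the values that follow describe the peaks and test nothing.

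Trimethylation of lysine 27 of histone H3 is written by EZH2 within Polycomb repressive complex PRC2 and bound by the CBX subunits of PRC1. It is best known from silent developmental regulator genes, where it can form broad domains, and it accompanies H3K4me3 at bivalent promoters. H3K9me3 marks heterochromatin and repeated sequence, whereas H3K4me3 and H3K9Ac, the marks of activation (MOAs), sit at active promoters. H3K9me3 and H3K27me3 are the marks of repression (MORs).

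Mark-free peaks were somewhat narrower and lower in score, in the median, than the placed H3K27me3 peaks that shared another mark. Their median width was 2014 bases, with quartiles at 1710 and 2387 bases and a range from 770 to 6109 bases. They covered 4.44 Mb in all. Only 34 of them (1.64%) were at least 4000 bases wide, against 146 (6.71%) of the placed H3K27me3 peaks sharing H3K9me3 and 57 (14.9%) of those sharing H3K4me3. The widest peak sharing either mark spanned 46647 bases. A wider peak has more bases that can touch a peak of another mark, so the rule itself favours narrow peaks. The contrast in width is therefore not independent of how the peaks were chosen.

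The median score of mark-free peaks was 63.6, with quartiles at 55.5 and 77.3. The median was 67.0 for peaks sharing H3K9me3 and 77.7 for peaks sharing H3K4me3. A score of at least 100 was reached by 220 mark-free peaks (10.6%, interval 9.34% to 12.04%), by 16.0% of peaks sharing H3K9me3 and by 31.1% of peaks sharing H3K4me3. Thus the distributions of mark-free peaks and peaks sharing H3K9me3 overlapped over most of their range and differed mainly in the upper tail. Peaks sharing H3K4me3 were shifted more widely, with quartiles at 59.9 and 113. Mark-free peaks made up 50.5% of all placed peaks with scores from 50 to below 60 and 41.1% of those from 80 to below 100. Among the 57 placed peaks with scores of 200 or more, 4 (7.02%, interval 1.95% to 17.0%) were mark-free. Because wider mark-free peaks also had higher scores, as given below, the rule bears on these contrasts in score as well.

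**Figure D1:**
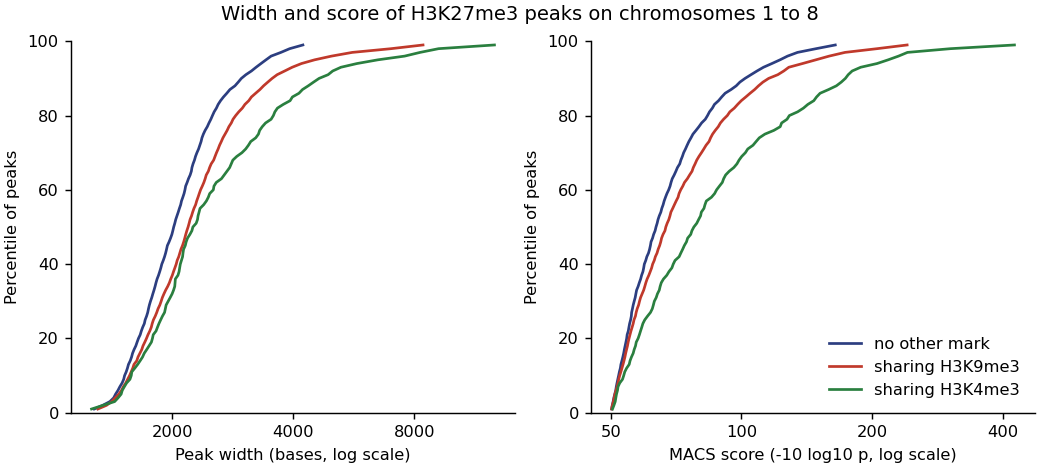
Percentiles (1 to 99) of peak width in bases (left, log axis) and MACS score (right, log axis) for H3K27me3 peaks on chromosomes 1 to 8 that shared no other mark (blue, 2069 peaks), H3K9me3 (red, 2177) or H3K4me3 (green, 383), where a peak sharing both marks is in both curves. The blue curve lies to the left over most of its height, with medians of 2014 bases and a score of 63.6, and the curves separate most at the top.

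Wider mark-free peaks had higher scores. The median width was 1742 bases at scores from 50 to below 60, 2057 bases from 60 to below 80, 2437 bases from 80 to below 100 and 3166 bases at 100 or more. Across the 2069 peaks Spearman's rho of width and score was 0.66, given as a description because a wider window collects more reads of the same library. The threshold cut through a continuous range of scores. The peaks just inside it had scores of 50.01, 50.01 and 50.02, and the mark-free peaks just outside had 49.97, 49.96 and 49.96. There were 96 mark-free peaks with a score below 51, and 104 others from 49 to below 50. In all, 4942 mark-free placed peaks of the H3K27me3 list fell below the threshold.

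The highest score, 269, belonged to the peak that was also the widest (chr7:258395226-258401334, MonDom5). It was 6109 bases wide and lay 1359 bases from an H3K4me3 peak and 2089 bases from an H3K9Ac peak. The next peak in order of score (chr2:360477526-360483265, score 246) was 5740 bases wide. It lay 110 bases from an H3K4me3 peak and 70 bases from an H3K9me3 peak. The following ones were chr8:179975735-179979989 (score 236), chr6:76940332-76943182 (score 204) and chr1:559963944-559967753 (score 198). Their nearest H3K4me3 peaks were 3009, 435 and 213 bases away, in that order. All 5 of the highest-scored peaks therefore had an H3K4me3 peak within 5 kb, as did 827 (40.0%) of all mark-free peaks.

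Width alone did not imply a high score. A peak of 6053 bases (chr4:341650890-341656942) had a score of 52.7, and one of 5839 bases (chr3:40248306-40254144) had a score of 109. The narrowest of the 5 widest peaks (chr7:211732025-211737489, 5465 bases, score 152) was the first of a cluster of 6. Genes at these positions were not analysed here.

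Some of the mark-free peaks lay in clusters and most were single. Peaks separated by at most 50 kb were placed in 1 cluster, and 751 of the 2069 peaks (36.3%, interval 34.2% to 38.4%) fell into 292 clusters of at least 2. The other 1318 peaks were single. Neighbouring peaks on a chromosome were separated by 1632 kb on average but by 536 kb in the median. The nearest other mark-free peak was 148 kb away in the median, with quartiles at 17.0 and 652 kb. There were 189 clusters of 2 peaks, 72 of 3, 18 of 4 and 13 of 5 or more. The latter held 85 peaks.

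Mark-free peaks covered only part of the cluster spans. The median span was 22.5 kb, and the median share of a span covered by its mark-free peaks was 24.3%. The definition bears on this, because gaps of up to 50 kb were joined and H3K27me3 peaks sharing another mark were left out. An H3K4me3 peak lay in the span of 150 of all 292 clusters (51.4%), an H3K9me3 peak in 133 (45.5%) and an H3K9Ac peak in 65 (22.3%), and 98 spans (33.6%) held no peak of another mark. In the 103 clusters of 3 or more peaks the median span was 41.8 kb and the median cover 20.1%. The span of 77 of these 103 clusters (74.8%) held an H3K4me3 peak, that of 64 (62.1%) an H3K9me3 peak, and that of 32 (31.1%) an H3K9Ac peak. In 15 (14.6%) the span held no peak of another mark. A further H3K27me3 peak above the threshold, sharing another mark, lay in the span of 29 (28.2%). Longer spans can hold more peaks of any mark. By chromosome the lists held 17.7 to 23.8 H3K4me3 peaks and 39.2 to 56.0 H3K9me3 peaks per Mb. Shares for other stretches of the same length were not computed, so these shares show no enrichment or lack of a mark.

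The largest cluster (chr3:208930955-209110058) held 11 mark-free peaks in 179 kb. Their scores ran from 50.4 to 125 with a median of 68.6, and their widths from 1539 to 3155 bases. They covered 14.0% of the span, and all H3K27me3 peaks of the deposited list together covered 24.3%. The same span held 4 H3K27me3 peaks sharing another mark and 6 below the threshold, so that 21 H3K27me3 peaks lay there in all. It also held 13 H3K9me3 peaks and 6 H3K4me3 peaks but only 1 of H3K9Ac. From the first to the last along the chromosome, the mark-free peaks had scores of 83.8, 50.4, 125, 67.9, 90.8, 68.4, 79.1, 114, 58.6, 64.0 and 68.6, with no order along the row. The peak with a score of 114 was 58 bases from an H3K4me3 peak, whereas the one with 90.8 was 34.2 kb from the nearest.

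A cluster of 10 peaks on chromosome 1 (chr1:418255239-418385069) spanned 130 kb. The scores ran from 53.5 to 138. This stretch held 5 H3K4me3 peaks, the strongest with a score of 972, no H3K9Ac peak and 2 H3K9me3 peaks. All 5 H3K4me3 peaks and every mark-free peak but the last lay in the first 78.8 kb, and the last one was separated from them by 48973 bases.

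The other cluster of 10 (chr1:122633649-122724056) was denser, spanning 90.4 kb. Its mark-free peaks covered 27.7% of the span and all H3K27me3 peaks 44.5%. The median score of 91.3 was the highest of the 3 clusters, and the highest single score was 146. Its span held 4 H3K4me3 peaks, the strongest with a score of 1525, 6 H3K9me3 peaks and 1 weak H3K9Ac peak with a score of 67.4.

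**Figure D2:**
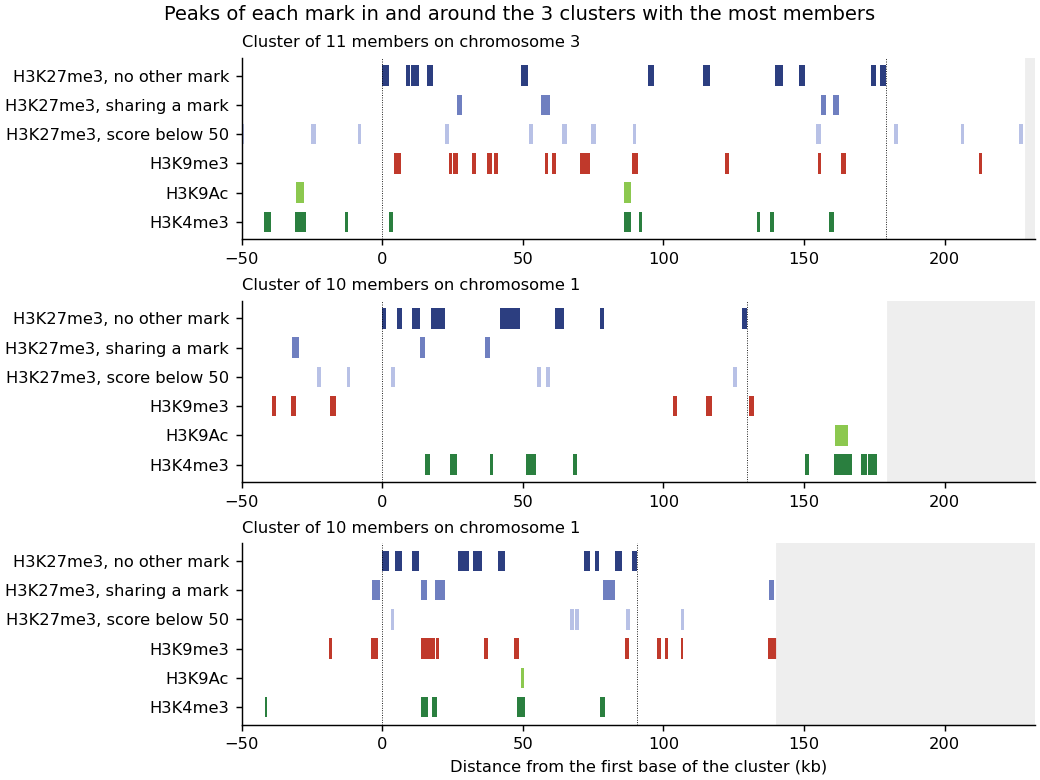
Deposited peaks of each mark, drawn to scale as bars, in the 3 clusters with the most mark-free H3K27me3 peaks and 50 kb on each side (x axis, kb from the first base of the cluster). Dotted lines mark the cluster ends and grey areas were not drawn. Mark-free H3K27me3 peaks (dark blue) alternate with H3K27me3 peaks that share a mark or fall below a score of 50 (lighter blues), and H3K4me3 peaks (green) outnumber those of H3K9Ac (light green) in each span.

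By span, the third was a cluster of 6 peaks (chr3:367184003-367286238) of 102 kb, with scores from 59.1 to 150. It held 3 H3K4me3, 2 H3K9Ac and 2 H3K9me3 peaks. The H3K27me3 peaks in it other than the mark-free ones were 4 peaks below the threshold.

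Peaks in larger clusters had higher scores than single peaks. A score of at least 100 was reached by 64 of the 373 peaks in clusters of 3 or more (17.2%, interval 13.5% to 21.4%), by 47 of 378 in clusters of 2 (12.4%) and by 109 of 1318 single peaks (8.27%, interval 6.84% to 9.89%). The median width was 2115 bases in clusters of 3 or more and 1980 bases for single peaks. Of the distances to other marks, that to H3K9Ac had intervals that did not overlap, with a median of 26.97 kb (22.8 to 30.9) in clusters of 3 or more and 18.8 kb (17.3 to 21.3) for single peaks. The intervals overlapped for H3K4me3, at 6.32 kb (5.37 to 7.40) and 7.91 kb (7.19 to 8.56), and for H3K9me3, at 10.1 kb (8.54 to 11.9) and 9.33 kb (8.67 to 10.4).

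Single peaks were not all isolated within the H3K27me3 list. Of the 1318, 299 (22.7%) lay within 50 kb of an H3K27me3 peak that shared another mark, and 722 (54.8%) within 50 kb of a peak below the threshold. There remained 504 mark-free peaks (24.4% of 2069) with no other deposited H3K27me3 peak within 50 kb. Their score was 61.2 and their width 1910.5 bases in the median, and 29 of them (5.75%) reached a score of 100.

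Mark-free peaks were found on all 8 placed autosomes at 0.604 per Mb, each chromosome being taken to end at its last base in any peak. Chromosome 1 had the highest density, with 562 peaks or 0.751 per Mb (exact Poisson interval 0.690 to 0.816). Chromosome 3 had the lowest, with 263 peaks or 0.498 per Mb (0.440 to 0.562). The others, in falling order, were chromosome 5 at 0.636, 2 at 0.626, 8 at 0.614, 4 at 0.535, 6 at 0.527 and 7 at 0.506 per Mb. The intervals of all of these overlapped that of chromosome 3, and those of chromosomes 5, 2 and 8 also reached that of chromosome 1, whereas those of chromosomes 4, 6, 7 and 3 lay below it. When each cluster was counted once, chromosome 1 still had the highest density (0.569 per Mb) and chromosome 3 the lowest (0.385 per Mb).

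H3K27me3 peaks sharing another mark were also densest on chromosome 1, at 0.840 per Mb, but were sparsest on chromosome 7, at 0.498 per Mb. The mark-free share of placed peaks ran from 42.1% on chromosome 3 (interval 38.2% to 46.1%) to 50.4% on chromosome 7 (44.2% to 56.6%). These intervals overlapped. The median width ranged over chromosomes from 1926.5 bases (chromosome 5) to 2056 bases (chromosome 1) and the median score from 62.4 (chromosome 5) to 65.6 (chromosome 3), so that neither set a chromosome apart.

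**Figure D3:**
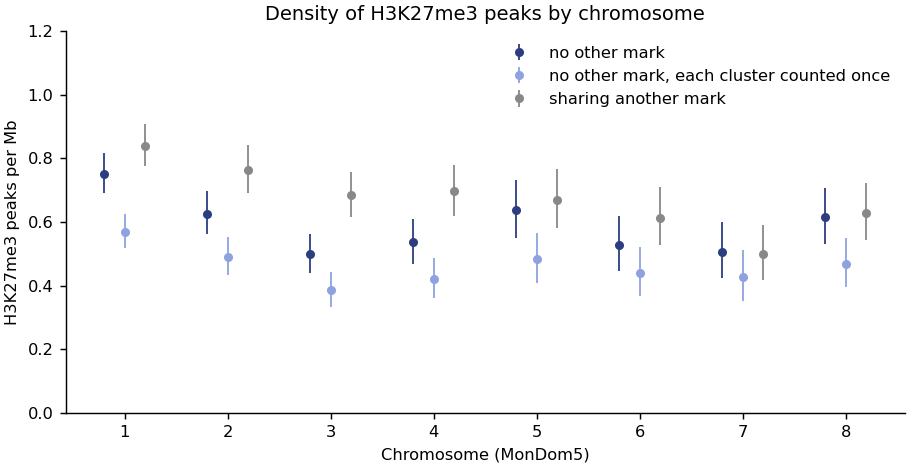
H3K27me3 peaks per Mb on chromosomes 1 to 8 of MonDom5 for mark-free peaks (dark blue), mark-free peaks with each cluster counted once (light blue) and peaks sharing another mark (grey). Points are densities and bars exact 95% Poisson intervals, which cover counting error only. Chromosome 1 is highest in each series, at 0.751, 0.569 and 0.840 per Mb.

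At a finer scale, 1125 of 3427 bins of 1 Mb (32.8%) held at least 1 mark-free peak, and 661 of these held exactly 1. The 34 bins with the most peaks, 1% of all bins, held 258 peaks (12.5%). The fullest bin, from 201 to 202 Mb on chromosome 2, held 16 mark-free peaks and 14 H3K27me3 peaks that shared another mark. Mark-free peaks were in the majority in the bins from 65 to 66 Mb on chromosome 2 (10 against 1) and from 49 to 50 Mb on chromosome 8 (10 against 4), and in the minority from 332 to 333 Mb on chromosome 1 (10 against 20). The largest stretch between neighbouring mark-free peaks was 33.5 Mb.

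The nearest peak of another mark was close to most mark-free peaks. It was 3.31 kb away in the median (quartiles 1.17 and 7.78 kb), and 5.27% of mark-free peaks had none within 20 kb. H3K4me3 was the nearest other mark for 1029 peaks (49.7%, interval 47.6% to 51.9%), H3K9me3 for 940 (45.4%) and H3K9Ac for 100 (4.83%). Edge to edge, the median distance was 7.40 kb to H3K4me3 (quartiles 2.58 and 17.2 kb), 9.82 kb to H3K9me3 (3.21 and 24.9 kb) and 21.3 kb to H3K9Ac (8.04 and 52.5 kb). The number of peaks in a list affects such distances, and there were 75115 placed H3K4me3 peaks and 152259 of H3K9me3. The rule affects them too. It left out the 2177 H3K27me3 peaks that shared a base with H3K9me3 and the 383 that shared one with H3K4me3. The order in which H3K4me3 was nearer than H3K9me3 can therefore depend on this choice of peaks. Among all 7011 mark-free peaks of the deposited list, weak ones included, this order turned, with 9.43 kb to H3K4me3 and 9.34 kb to H3K9me3. Against the H3K9me3 peaks with a score of at least 50 alone, the median distance was 15.1 kb.

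**Figure D4:**
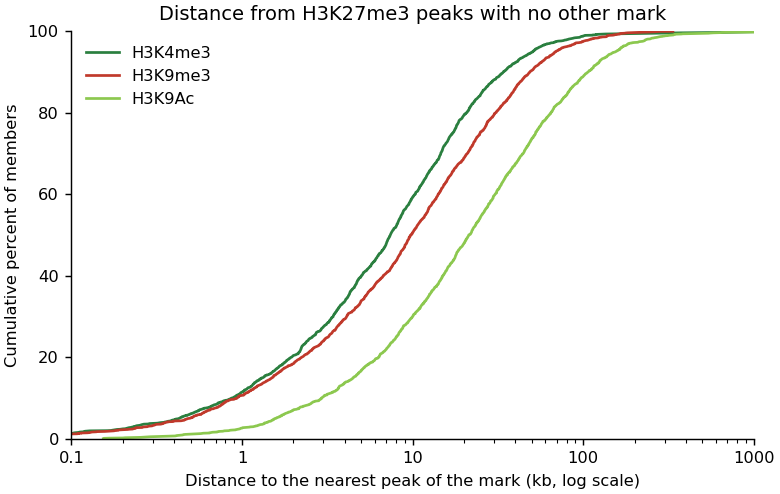
Cumulative percent of the 2069 mark-free H3K27me3 peaks (y axis) against the edge-to-edge distance to the nearest deposited peak of each mark (x axis, kb, log scale). The curve of H3K4me3 is to the left of that of H3K9me3 over most of the range and H3K9Ac is far to the right, with medians of 7.40, 9.82 and 21.3 kb.

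Distances to H3K4me3 were shorter than for H3K27me3 peaks that shared H3K9me3 and no other mark, whose median was 11.9 kb (interval 11.2 to 12.7, 2030 peaks) against 7.40 kb (7.01 to 8.02). Distances to H3K9Ac, at 22.5 kb (21.1 to 24.6) against 21.3 kb (19.96 to 23.2), had overlapping intervals. Within 50 kb, 94.8% of mark-free peaks had an H3K4me3 peak, 90.3% an H3K9me3 peak and 73.6% an H3K9Ac peak. The most remote peak (chr8:266206525-266207924, score 52.1) was 102 kb from any peak of another mark. It was followed by chr5:303465599-303467149 (score 51.3) at 67.9 kb and chr6:123826999-123828875 (score 91.7) at 53.4 kb. Another mark-free peak lay 1971, 405 and 142 kb from these 3, in that order.

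On their flanks, 891 mark-free peaks (43.1%) had H3K4me3 as the first mark on one side and H3K9me3 on the other. Another 530 (25.6%) lay between 2 H3K9me3 peaks and 445 (21.5%) between 2 H3K4me3 peaks. H3K9Ac was first on 1 side and H3K4me3 on the other for 102, H3K9Ac and H3K9me3 for 91, and H3K9Ac was first on both sides for 10.

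Cover by peaks of each mark was measured in the flanks and set beside its mean over chromosomes 1 to 8. From 2 to 5 kb outside mark-free peaks, 10.2% of bases lay in H3K4me3 peaks, 1.79 times the chromosomal mean of 5.68%. This fell to 8.94% from 10 to 20 kb and 8.08% from 20 to 50 kb. It fell no further, at 8.23% from 50 to 100 kb, still 1.45 times the mean. For H3K27me3 peaks sharing H3K9me3 the value from 2 to 5 kb was 7.34% and rose to 8.78% from 10 to 20 kb. From 50 to 100 kb it was 8.77%, so cover above the mean at that distance was not particular to mark-free peaks. H3K9Ac covered 3.93% of bases from 2 to 5 kb outside mark-free peaks, against a mean of 3.797%, and 4.63% from 10 to 20 kb. In clusters of 3 or more, H3K9Ac cover stayed below its mean from 2 to 5 kb (2.85%), from 5 to 10 kb (2.87%) and from 10 to 20 kb (3.18%). H3K4me3 covered 11.0% from 2 to 5 kb outside these peaks. Beside H3K27me3 peaks sharing H3K4me3, H3K9Ac covered 4.55% from 2 to 5 kb, 2.36% from 5 to 10 kb and 2.29% from 10 to 20 kb. Low H3K9Ac cover beyond 5 kb was thus not particular to the clusters. The first 2 kb outside mark-free peaks held less of every other mark than the range from 2 to 5 kb. Leaving out peaks that shared a base with another mark limits what can lie there. H3K9Ac covered 1.39% of these first 2 kb, and 1.48% beside peaks sharing H3K9me3, which were not chosen by H3K9Ac. The cause was not tested.

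H3K9me3 cover was near its mean of 7.84% close to mark-free peaks, at 8.10% from 2 to 5 kb, and lower farther out, at 5.88% from 50 to 100 kb. Outside peaks sharing H3K9me3 it was 20.8% and 11.0% over the same ranges, but these were chosen for overlapping an H3K9me3 peak, which can itself run on into the flank, so the choice of peaks sets this contrast near the edge. H3K27me3 itself covered 8.73% of bases from 2 to 5 kb outside mark-free peaks, 12.5 times its mean of 0.696%, and 2.63% from 50 to 100 kb. Over the same 2 to 5 kb the value was 13.7 times the mean beside peaks sharing H3K9me3 and 30.6 times beside those sharing H3K4me3. For single mark-free peaks, which have no other within 50 kb, the value from 2 to 5 kb was 4.37%, made up of peaks below the threshold or sharing a mark.

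**Figure D5:**
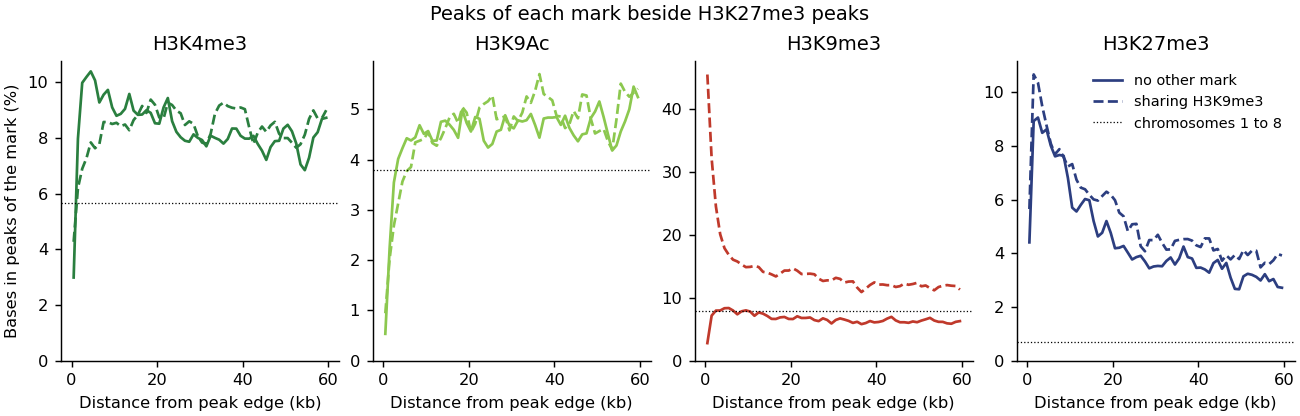
Percent of bases lying in deposited peaks of each mark (y axis, a separate scale per panel) in steps of 1 kb from the edge of H3K27me3 peaks that were mark-free (solid) or shared H3K9me3 (dashed). The dotted line is the mean over chromosomes 1 to 8. Beside mark-free peaks H3K4me3 is highest within the first 10 kb, H3K9me3 stays near or under its mean of 7.84%, and H3K27me3 falls with distance but stays above 0.696%.

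The H3K4me3 peaks next to mark-free peaks had a higher median score than all placed H3K4me3 peaks, and a lower share of them carried H3K9Ac. The 770 distinct H3K4me3 peaks that were the nearest one to a mark-free peak and at most 5 kb from it had a median score of 424, against 236 for every placed H3K4me3 peak and 417 for the 490 at most 5 kb from H3K27me3 peaks that shared H3K9me3 alone. A higher median was thus found beside both kinds of peak. Beside mark-free peaks it fell with distance, from 545 at 0 to 2 kb to 325 at 2 to 5 kb and 256 at 5 to 10 kb. An H3K9Ac peak overlapped 327 of the 770 (42.5%, interval 38.9% to 46.0%), against 58.9% of the 75115. At 10 to 20 kb, where the absence of overlap with the mark-free peak no longer limits the position of H3K9Ac, it was 49.5%. Beside H3K27me3 peaks that shared H3K9me3 alone the share was 53.3% (interval 48.7% to 57.8%). Next to clusters of 3 or more it was 37 of 127 (29.1%, interval 21.4% to 37.9%) and next to single peaks 237 of 513 (46.2%, interval 41.8% to 50.6%). These 2 groups of H3K4me3 peaks also differed in median score, at 284 next to clusters of 3 or more and 467 next to single peaks. Only 43 of the 770 (5.58%) had mark-free peaks within 5 kb on both sides.

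The H3K9me3 peaks that were the nearest one to a mark-free peak and at most 5 kb from it had higher scores than all placed H3K9me3 peaks together. The same was not computed beside H3K27me3 peaks that shared another mark, so it cannot be called particular to mark-free peaks. The 672 distinct peaks had a median score of 77.3, against 52.5 for every placed H3K9me3 peak, and 69.2% of them (interval 65.6% to 72.7%) had a score of at least 50, against 53.8%.

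Positions of genes were at hand only for those that the study took forward as imprinting candidates and for *IGF2R*, through the MonDom5 position of the 3′ end region amplified for each. These genes were chosen by the study for MOAs and H3K9me3 at the promoter in the same libraries, so they are not a sample of all genes. Of the 177 on chromosomes 1 to 8, none had a mark-free peak within 10 kb of that region, 4 (2.26%) within 20 kb and 26 (14.7%, interval 9.83% to 20.8%) within 100 kb. The median distance was 409 kb. No such shares were computed for other positions on these chromosomes, so the values do not show whether the genes lie nearer to or farther from mark-free peaks than other sequence. The nearest with a gene symbol, picked for that distance, were *PPIH*, a cyclophilin of the splicing machinery, at 12.6 kb from a peak with a score of 112, and *HAS3*, a hyaluronan synthase, at 14.3 kb from a peak with a score of 50.3.

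Among developmental regulators in this set, *NR2F1*, a nuclear receptor of neural development, was 23.1 kb from a mark-free peak (score 63.2), and 13 mark-free peaks lay within 500 kb of it. These include the 11 of the largest cluster, which began 180 kb away. *NR2F1* was named after its position had been seen. The other developmental regulators were farther from mark-free peaks. *TWIST1*, a factor of mesenchymal development, was 93.9 kb from a peak with a score of 99.2 and *RUNX1*, a factor of blood development, 95.7 kb from one with a score of 67.4, both also named after their values had been seen. *WT1*, a factor of kidney and gonad development, was 390 kb away and the homeobox gene *IRX2* 547 kb away. *MEIS1*, a homeobox gene, was 1319 kb from the nearest mark-free peak, *IGF2R*, the receptor that clears IGF2, 1583 kb and *TBX15*, a T-box gene of limb and skeletal development, 3222 kb.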

How the data were processed

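The authors prepared native ChIP-seq libraries from the ear fibroblasts of 1 male, mapped the reads to MonDom5 with Bowtie in Galaxy (seed of 28 bases, up to 2 mismatches, best alignment kept) and called peaks in each library against input with MACS. The submitters' processing notes list CASAVA 1.7, Bowtie 1.1.2 and MACS 1.0.1. Each deposited list gives peak positions and a MACS score (-10 multiplied by log10 of p), which depends on depth and width and was used only within a list. The deposited H3K4me3 and H3K9Ac lists start at a score of 50, those of H3K9me3 and H3K27me3 at 30. The lists hold no read counts, so read depth per library was not analysed here.

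All values were computed in Python 3.11.15 (pandas 2.3.3, numpy 2.4.6, scipy 1.17.1). Starts were moved to counting from 1, and 2 H3K9me3 starts below 0 were set to 0. Peaks sharing 1 base or more with any deposited peak of another mark were left out, a step checked against bedtools 2.31.1 (2069 peaks by both). The interval code was tested on simulated peaks. Distances run between nearest bases. Intervals are exact binomial or Poisson, and for medians from order statistics, at 95%.

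Regions named are the 5 highest-scored and 5 widest peaks, the 3 farthest from other marks, and the 3 clusters with the most peaks or the widest span. Genes named are developmental regulators and imprinted genes of fixed lists, with others as stated. Peaks, lists and comparisons were chosen with earlier results of these data known. Positions of genes and sequence composition over the genome were not analysed here, as no MonDom5 genome or annotation was used.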

Additional observations from a re-analysis of the deposited data

How the results depend on the processing

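For 9 results, 61 alternative values were computed, of which 29 stayed and 32 moved. A number of peaks or clusters was taken as moved beyond a factor of 1.5, any other value outside its 95% interval. No single value reversed. With weak peaks included, H3K4me3 was no longer nearer than H3K9me3, and the chromosome with the lowest density changed between settings, as given below. For the moved values the cause was not tested. With every deposited placed H3K27me3 peak (score of at least 30) there were 7011 mark-free peaks with a median width of 1516 bases, 54.9% of them in 1303 clusters, 8.12% in the fullest 1% of bins, at median distances of 9.43 kb to H3K4me3 and 23.7 kb to H3K9Ac, and a ratio of chromosome 1 to chromosome 3 in density of 1.28, against 1.51. The distance to H3K9me3 was then 9.34 kb, with an interval (8.96 to 9.65) that overlapped that of H3K4me3 (9.07 to 9.74). At a score of at least 100 there were 220 peaks, of median width 3166 bases, 15.0% in 14 clusters and 30.9% in the fullest bins, at 8.99 kb from H3K9me3, 3.82 kb from H3K4me3 and 17.2 kb from H3K9Ac. With other marks at a score of at least 50, distances were 14.5 kb to H3K9me3 and 8.07 kb to H3K4me3. Without peaks within 1000 bases of another mark, 31.6% were in clusters, at 11.4 kb from H3K9me3 and 8.75 kb from H3K4me3. After merging within 1000 bases, 34.1% were in clusters. A gap of 10 kb gave 18.9% in 170 clusters and one of 100 kb 44.7%. Clusters formed from all placed H3K27me3 peaks above the threshold took in 50.7% of mark-free peaks, in 566 clusters. Midpoint distances were 11.9 kb to H3K9me3, 9.82 kb to H3K4me3 and 23.8 kb to H3K9Ac. Counting each cluster once, chosen after seeing the data, gave 19.8 kb to H3K9Ac and 8.45% in the fullest bins. Chromosome 1 was densest in all 6 alternative sets of peaks, while the sparsest was chromosome 3 in 3 of them and chromosome 6 or 7 in the others. No paired analysis was possible because each antibody had a single library from the same male. Results on genes and sequence composition set out beforehand were not run, and the chromosome length by largest peak end was the length used throughout. With peak lists alone, a weak signal of another mark below its list's threshold cannot be seen, and a mark-free peak may carry one.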

Other observations

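The share of H3K27me3 peaks lying near chromosome ends was lower for mark-free peaks than for those sharing H3K9me3. The outer 10 Mb at both ends of chromosomes 1 to 8 made up 4.67% of their span and held 78 mark-free peaks (3.77%, interval 2.99% to 4.68%), 9 of the 383 peaks sharing H3K4me3 (2.35%, interval 1.08% to 4.41%) and 151 of the 2177 sharing H3K9me3 (6.94%, interval 5.90% to 8.09%). Single ends differed widely. The far end of chromosome 1 held 4 mark-free peaks and 22 sharing another mark, whereas that of chromosome 4 held 10 and 9. The distance of 10 Mb was chosen with earlier results known, and no test was made.

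Outside chromosomes 1 to 8, peaks free of other marks were scarce. On sequence not placed on a chromosome, 76 of 2179 H3K27me3 peaks with a score of at least 50 (3.49%, interval 2.76% to 4.35%) shared no base with another mark, against 46.1% on chromosomes 1 to 8. On the X chromosome 1 of 5 did so. Among placed H3K27me3 peaks with scores from 30 to below 50, the share free of other marks was 55.9% (interval 54.9% to 57.0%), above the share at higher scores.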
